A study of Homo sapiens with 4 samples.

Results

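The RNAs described here are the messages and precursor messages of RNA processing factors: the proteins that package, splice, cleave, unwind, protect and degrade other RNAs. They were chosen by symbol among the protein-coding RNAs of a chromatin contact map, as those starting with HNRNP, SRSF, SF3, PRPF, RBM, DDX, DHX, CPSF, CSTF, LARP, CNOT, XRN or EXOSC, or named U2SURP or TIA1, with HNRNPU left out. The rule found 47 RNAs among 2637 in all, of which 2435 were protein-coding, and no EXOSC RNA was listed. The rule uses symbols and no measured value, but it was written with earlier results of these data known.

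Contacts were mapped with GRID-seq in K562 cells, an established human leukaemia line with erythroid features. GRID-seq ligates RNA to nearby DNA through a linker in fixed nuclei, so that a sequenced molecule reports an RNA together with a place in the genome. Cells that carry R320*, a premature stop towards the C terminus of the blood transcription factor RUNX1, gave 2 libraries, and WT cells gave 2 libraries, with the same culture medium and fixation. The authors combined the libraries into 1 score per genotype for each pair of an RNA and an enhancer or promoter. The labels do not say whether libraries came from separate cultures, whether the mutant cells were 1 clone, or whether they still had a normal RUNX1 copy. A score was either at least 1.2 or 0, and 0 is given here as "not listed". With 1 pooled score per genotype there is no replicate spread and no test of any genotype difference, and sequencing depth is unknown. Of 13 erythroid and K562 marker RNAs, 7 were listed, HBG2 and HBE1 with most connections, against 0 of 7 markers of other blood lineages. Markers such as GATA1 and KLF1 were not listed.

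As background, a precursor messenger RNA is handled while it is still being made. The hnRNP proteins coat it and the SR proteins mark its exons; the spliceosome, driven by helicases, removes introns; cleavage factors cut its 3′ end; and deadenylases and exonucleases later shorten and destroy it. Many of these genes are themselves spliced in alternative ways that set their own protein level. In a contact map the RNA of such a gene marks where that RNA lay, not where its protein acted.

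The 250 bases before the annotated start are shown for 4 genes, because the genes' own promoters were among their listed contacts and because RUNX1 binds DNA through the letters TGTGGT or TGCGGT. DHX35 was listed in R320* only, CNOT6L in WT only, RBM6 held a pair of RUNX matches, and DDX17 was among the RNAs with the lowest ratio of connection numbers. Sequences are those of RefSeq, build GRCh38.p14, read 5′ to 3′ on the gene's strand. Capitals mark the GC box GGGCGG and the RUNX letters on either strand; a match on the opposite strand reads as the reverse complement. None of these matches overlapped in the windows shown.
DHX35 (chr20:38962094-38962343, plus strand): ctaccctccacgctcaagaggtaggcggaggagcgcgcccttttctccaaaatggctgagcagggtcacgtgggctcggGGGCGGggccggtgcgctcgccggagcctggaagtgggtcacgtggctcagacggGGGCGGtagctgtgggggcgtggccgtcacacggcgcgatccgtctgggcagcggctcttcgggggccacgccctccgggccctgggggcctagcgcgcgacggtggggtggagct
CNOT6L (chr4:77820270-77820519, minus strand): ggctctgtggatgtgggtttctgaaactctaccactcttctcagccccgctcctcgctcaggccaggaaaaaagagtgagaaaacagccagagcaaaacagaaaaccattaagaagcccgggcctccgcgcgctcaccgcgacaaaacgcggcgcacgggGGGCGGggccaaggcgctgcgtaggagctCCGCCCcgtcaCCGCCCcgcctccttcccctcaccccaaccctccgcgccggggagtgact
RBM6 (chr3:49939900-49940149, plus strand): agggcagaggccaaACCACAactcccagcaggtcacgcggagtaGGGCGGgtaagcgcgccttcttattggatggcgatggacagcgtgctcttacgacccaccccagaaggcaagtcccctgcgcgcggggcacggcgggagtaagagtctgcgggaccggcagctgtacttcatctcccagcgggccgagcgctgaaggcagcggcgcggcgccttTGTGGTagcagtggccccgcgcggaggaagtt
DDX17 (chr22:38506312-38506561, minus strand): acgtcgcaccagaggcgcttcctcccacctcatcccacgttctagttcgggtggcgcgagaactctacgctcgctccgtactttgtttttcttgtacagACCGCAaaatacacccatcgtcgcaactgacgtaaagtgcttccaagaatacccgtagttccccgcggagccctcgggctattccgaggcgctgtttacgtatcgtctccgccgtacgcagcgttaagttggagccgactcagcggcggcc

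The DHX35 window held 2 GC boxes and the CNOT6L window 3, both without RUNX letters. RBM6 had 1 GC box and 2 RUNX matches, and DDX17 had 1 RUNX match and no GC box. RefSeq held 57 windows for 42 of the 47 genes. RUNX letters stood in 10.5% of these windows, against 16.3% of 35116 windows of all genes. The GC box stood in 68.4% of the windows, against 42.6% of all, the letters CCAAT in 45.6%, against 32%, and the ETS letters CCGGAA in 33.3%, against 14.5%. Of the 57 windows, 52, from 38 genes, overlapped an element listed as a contact of the gene's own RNA. The element over the RBM6 window scored 2.00 in R320* and 1.91 in WT, and that over the DDX17 window 2.32 in R320* and 2.20 in WT. These letters describe the windows and are not binding sites shown by these data.

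The 47 RNAs had 1960 connections to 1865 elements, 1186 enhancers and 679 promoters. R320* listed 1528 of the connections and WT 1540, and 1108 were in both genotypes. That is 56.5%, against 48.4% for the other 2388 protein-coding RNAs and 45.2% of all 115357 connections. Connections to another chromosome were 67 of the 1960, against 13351 of 97627 for the other protein-coding RNAs. Of connections typed as cis, on the RNA's own chromosome, 57.0% were in both genotypes, against 52.5% for the other protein-coding RNAs. Of the 1960, 420 were listed in R320* only and 432 in WT only. The scores of connections in 1 genotype had medians of 1.61 (R320* only) and 1.58 (WT only), nearer the minimum than the shared ones, whose medians were 2.01 in R320* and 1.94 in WT.

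Most of these RNAs had similar numbers of connections in both genotypes. Of the 42 listed in both, 20 had more connections in R320*, 21 fewer and 1 the same number. Of all 2137 RNAs listed in both, 1244 had more, 719 fewer and 174 the same number. Among the 27 RNA processing factors with a mean of at least 25 connections, 12 had more in R320* and 14 fewer. Of all 1293 such RNAs, 58.5% had more and 36.4% fewer. None of the 27 RNA processing factors, all listed in both genotypes, reached a 2-fold difference in either direction. Over all 1293 RNAs, 0.619% were at or above 2-fold in R320* and 0.619% were at or below the inverse ratio. RNAs listed in 1 genotype only have no such ratio, are outside these counts and are described below. When each RNA's contacts within 1 Mb of each other were merged into loci, with no minimum, 8 of the 42 RNAs had at least 2-fold more loci in R320*, where 17% of all 2137 RNAs did, and 9 of 42 at least 2-fold fewer, where 13.9% of all did; these RNAs had few merged loci, 114 in R320* and 125 in WT over all 47. Over unmerged connections the 27 RNAs above the minimum had a median log2 ratio of R320* over WT of -0.03, against 0.08 for all RNAs, and single ratios ran between -0.56 (RBM33) and 0.71 (HNRNPD). Across the 42 RNAs the number in R320* went with that in WT (Pearson's r = 0.879, Spearman's rho = 0.914, across genes of the same pooled libraries). A smaller number of connections may come from fewer RNA molecules or from fewer contacts per molecule, and these cannot be told apart here. Longer genes tended to have more connections (r = 0.499 between log2 gene length and log2 mean connections, rho = 0.474, n = 42 genes).

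**Figure D1:**
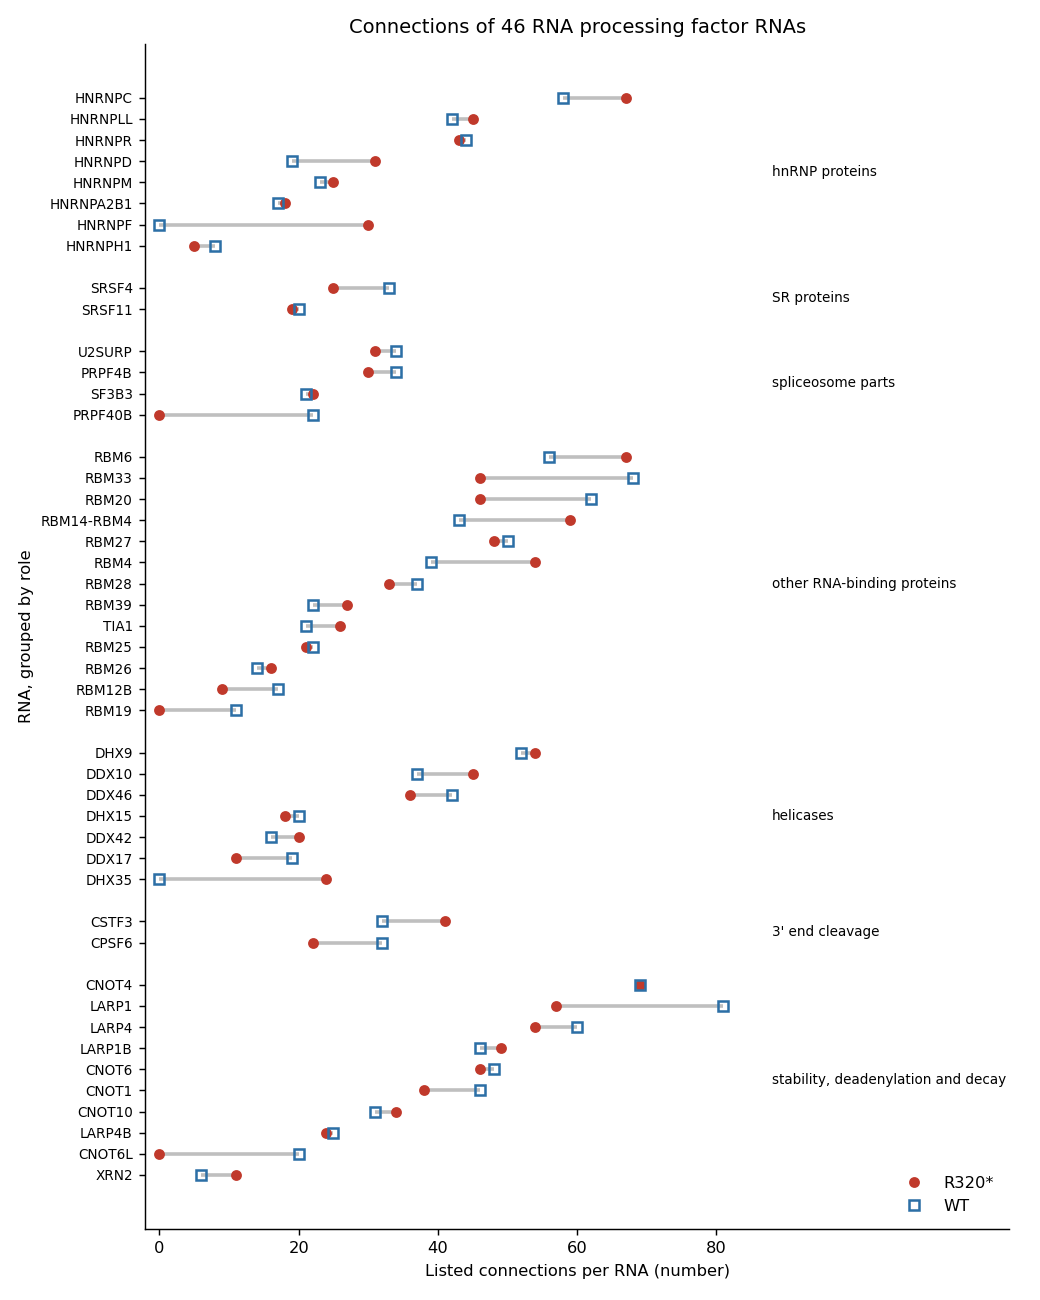
Number of listed connections (horizontal axis) of 46 of the 47 RNAs in R320* (filled circles) and WT (open squares), grouped by the protein's role, with a grey line joining the genotypes. HNRNPF and DHX35 stand at 0 in WT, PRPF40B, CNOT6L and RBM19 at 0 in R320*, and the other 41 RNAs shown have connections in both.

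Among the hnRNP RNAs, HNRNPC had the most connections. It encodes a protein that binds uridine tracts in new transcripts, and it had 67 connections in R320* and 58 in WT, 49 of them shared. HNRNPLL, a regulator of exon skipping in T cells, had 45 in R320* and 42 in WT, and HNRNPR had 43 in R320* and 44 in WT. HNRNPD, which binds AU-rich messages that turn over fast, had 31 in R320* and 19 in WT, the highest ratio among the RNAs above the minimum. Of its contacts beyond 1 Mb, R320* listed 9 and WT 3, whereas under 100 kb both listed the same 8. Its contacts in R320* only were led by an enhancer near COPS4, 652 kb away, at 2.17. HNRNPM, a splicing regulator, had 25 in R320* and 23 in WT. HNRNPH1, which binds runs of guanines, had only 5 in R320* and 8 in WT, and just its own enhancer and promoter were shared. Its enhancer scored 3.06 in R320* and 3.01 in WT.

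HNRNPA2B1 was the only RNA of the 47 without a contact typed as local. It encodes an abundant packaging and splicing protein and had 18 connections in R320* and 17 in WT. Its strongest contact was an enhancer at the neighbouring chromatin gene CBX3, 7.9 kb upstream, at 3.73 in R320* and 3.83 in WT. An element that the table names as a promoter of NFE2L3 (chromosome 7, 26182334 to 26206080, hg38) covers the whole HNRNPA2B1 gene (26189927 to 26200746). That element was listed with 13 other RNAs, 12 of them from other chromosomes, and not with HNRNPA2B1.

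Both SR protein RNAs had fewer connections in R320*. SRSF4 had 25 in R320* and 33 in WT, and SRSF11 had 19 in R320* and 20 in WT. Neither had a trans contact. SRSF4 held the only connection of the 47 RNAs that was at least 1 score unit lower in R320*, with the promoter of LAPTM5, a lysosomal membrane protein of blood cells, 1548 kb upstream: 1.22 in R320* and 2.43 in WT. Its strongest contact, an enhancer near AL357500.1 that lies 1.24 kb from the gene, scored 3.58 in R320* and 3.62 in WT. Of all 52089 shared connections 0.0749% were at least 1 unit lower in R320*.

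Of the spliceosome RNAs, U2SURP (a protein bound to the U2 particle) had 31 connections in R320* and 34 in WT, with 30 shared. PRPF4B, a spliceosomal kinase, had 30 in R320* and 34 in WT, and SF3B3, a subunit of the branch point complex, 22 in R320* and 21 in WT. The strongest SF3B3 contact was an element labelled as its own promoter, 0.276 kb past one end of the RefSeq gene, at 3.80 in R320* and 3.89 in WT.

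The other RNA-binding proteins supplied 13 RNAs. RBM6, a splicing regulator, had 67 connections in R320* and 56 in WT, all but 1 of the R320* and 2 of the WT same-chromosome ones within 1 Mb. RBM33 had 46 in R320* and 68 in WT, and 13 of the WT ones were trans, against 0 in R320*. Without trans contacts RBM33 had 46 in R320* and 55 in WT. RBM20, known for splicing of the muscle protein titin, had 46 in R320* and 62 in WT. Its contacts beyond 1 Mb numbered 10 in R320* and 23 in WT, and those between 100 kb and 1 Mb 23 in R320* and 26 in WT. RBM12B had 9 in R320* and 17 in WT, and none of the 8 WT contacts beyond 1 Mb was listed in R320*. It also had the highest score of all: an enhancer near AC010834.2, 5.24 kb away, at 4.60 in R320* and 4.63 in WT.

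RBM27 (48 in R320*, 50 in WT) and RBM26 (16 in R320*, 14 in WT) encode related zinc finger proteins. RBM28, a nucleolar protein, had 33 in R320* and 37 in WT, RBM39, a splicing coactivator, 27 in R320* and 22 in WT, and RBM25, a regulator of exon choice, 21 in R320* and 22 in WT. TIA1 binds uridine-rich RNA and gathers in stress granules. It had 26 in R320* and 21 in WT, and all 21 WT connections were listed in R320* too. TIA1 also held the only connection that was at least 1 unit higher in R320*, an enhancer at ANXA4, 439 kb downstream: 2.74 in R320* and 1.30 in WT, where 0.0998% of all shared connections were at least 1 unit higher in R320*. A nearby pair at GMCL1, 378 kb and 373 kb away, was listed in R320* only, at 2.61 and 2.21.

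RBM4, a splicing factor, had 54 connections in R320* and 39 in WT, and RBM14-RBM4, a readthrough gene that overlaps it, 59 in R320* and 43 in WT. The pair shared 51 elements, 87.9% of those of RBM4 and 83.6% of those of RBM14-RBM4. Reads from the overlap may serve both, so their values are not independent. Both are in the counts above; without RBM14-RBM4, 11 of 26 RNAs above the minimum had more connections in R320* and 14 fewer. Between 100 kb and 1 Mb RBM4 had 39 contacts in R320* and 24 in WT, and RBM14-RBM4 43 in R320* and 27 in WT, whereas under 100 kb each had the same 15 in both genotypes. Other protein-coding RNAs of chromosome 11 also had more connections in R320*, 4850 against 4049 in WT, and the part of this in the RBM4 values was not tested.

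Among the helicase RNAs, DHX9, RNA helicase A, had 54 connections in R320* and 52 in WT. DDX10, a ribosome assembly helicase, had 45 in R320* and 37 in WT, and DDX46, which acts on the U2 particle, 36 in R320* and 42 in WT. DHX15, which takes spent spliceosomes apart, had 18 in R320* and 20 in WT, and DDX42 had 20 in R320* and 16 in WT. DDX17, a helicase that also acts as a transcription coactivator, had 11 in R320* and 19 in WT. Most of that gap was trans: 2 of its R320* and 8 of its WT contacts lay on other chromosomes.

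The RNAs of 3′ end cleavage factors were CSTF3 and CPSF6. CSTF3 had 41 connections in R320* and 32 in WT, and CPSF6 had 22 in R320* and 32 in WT. Of their 48 shared connections, 42 had higher scores in R320* (87.5%), where 58.6% of all shared connections did. The median difference was 0.180 (SD 0.292 over connections), the largest among the roles. These connections belong to CSTF3 and CPSF6 alone, many at neighbouring elements, so they are not independent cases. The median difference was 0.19 for CSTF3 and 0.17 for CPSF6. Single RNAs of another role came near these values, DDX17 with 0.20 and DDX10 with 0.16. The median of such medians over the RNA processing factors was 0.05. An enhancer at LRRC10, 334 kb downstream of CPSF6, scored 2.33 in R320* and 1.54 in WT. In the opposite direction, CSTF3 met an enhancer at QSER1, 187 kb downstream, at 1.27 in R320* and 2.08 in WT. For CPSF6 the same 12 contacts under 100 kb were listed in both genotypes, and 9 in R320*, against 19 in WT, lay between 100 kb and 1 Mb, all 9 of them shared.

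Factors of RNA stability and decay gave 10 RNAs. CNOT4, a ubiquitin ligase tied to the CCR4-NOT complex, had 69 connections in each genotype, 48 of them shared. The other 21 in each genotype were not listed for CNOT4 in the other one. CNOT1, the scaffold of the complex, had 38 in R320* and 46 in WT, CNOT10 34 in R320* and 31 in WT, and the deadenylase CNOT6 46 in R320* and 48 in WT. LARP1 binds messages of the translation machinery. It had 57 in R320* and 81 in WT, with 36 in R320* and 54 in WT beyond 1 Mb but 12 in each genotype between 100 kb and 1 Mb. LARP4, a poly(A) protecting protein, had 54 in R320* and 60 in WT, its relative LARP4B 24 in R320* and 25 in WT, and LARP1B 49 in R320* and 46 in WT. XRN2, the exonuclease that ends transcription behind the polymerase, had 11 in R320* and 6 in WT.

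Of the 47 RNAs, 5 were listed in 1 genotype only: 2 in R320* only, where 8.61% of all RNAs were, and 3 in WT only, where 10.4% of all were. HNRNPF, a guanine run binding protein, had 30 connections in R320* with scores up to 3.79, at an enhancer near FXYD4 that lies 4.38 kb away. Its own promoter scored 3.09 in R320*. DHX35, a spliceosomal helicase, had 24 in R320*, the highest 3.58 at an enhancer 3.21 kb from the gene. PRPF40B had 22 in WT, the highest 2.30 at its own enhancer. CNOT6L, a deadenylase, had 20 in WT, the highest 2.28 at its own enhancer, and RBM19, a nucleolar protein of ribosome assembly, had 11 in WT, the highest 2.71. The contacts of the R320* only pair thus reached scores above those of all 3 WT only RNAs.

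In the genotype where each of these RNAs was not listed, other RNAs met part of its elements. They met most elements of DHX35 and CNOT6L, but not most of those of HNRNPF, PRPF40B and RBM19. In WT other RNAs met 21 of the 24 DHX35 elements, but 7 of the 30 HNRNPF elements. In R320* other RNAs met 19 of the 20 CNOT6L elements, 6 of the 22 PRPF40B elements and 5 of the 11 RBM19 elements. Within 1 Mb of DHX35, TTI1 was likewise listed in R320* only, with 19 connections, and RALGAPB had 26 in R320* and 22 in WT. Near PRPF40B, SPATS2 (54), KMT2D (8) and LINC02395 (6) were listed in WT only, whereas LARP4 and DIP2B were in both, DIP2B with 44 in R320* and 54 in WT. Near CNOT6L, both neighbours were in both genotypes, BMP2K with 80 connections in R320* and 114 in WT and SEPT11 with 46 in R320* and 34 in WT. Near RBM19, TPCN1 had 14 in R320* and 22 in WT, and LINC01234 had 7 in WT only. No other RNA was listed within 1 Mb of HNRNPF.

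Chromosome and genotype moved together for some of them. The 4 RNAs from chromosome 12 (CPSF6, LARP4, PRPF40B and RBM19) had 76 connections in R320* and 125 in WT. The 117 other protein-coding RNAs of that chromosome had 1568 in R320* and 3277 in WT, and 60 of them were listed in WT only. The 3 RNAs from chromosome 20 (DHX35, RBM39 and XRN2) had 62 in R320* and 28 in WT, where the 54 others had 1451 in R320* and 1187 in WT. The 5 from chromosome 5 had 192 in R320* and 229 in WT, where the others had 4532 in R320* and 5009 in WT. The part of the chromosome in the values of single RNAs was not tested.

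Contacts near the RNA's own gene were listed in both genotypes far more often than distant ones. Under 100 kb from the gene, 87.4% of 388 connections were in both, against 80.7% for other protein-coding RNAs. From 100 kb to 1 Mb it was 65.3% of 956, against 61.3%, and from 1 Mb on 26.2% of 549, against 26.8%. The median score of the shared ones followed the same order: 2.38 in R320* and 2.30 in WT under 100 kb, 1.94 in R320* and 1.87 in WT up to 1 Mb, and 1.64 in R320* and 1.68 in WT beyond. The shared connections had a median distance of 248 kb, against 1122 kb for same-chromosome ones in R320* only and 1068 kb for those in WT only. Of 89 connections typed as local, mostly elements over the gene itself, 79 were in both genotypes, and the other 10 belonged to the 5 RNAs listed in 1 genotype.

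**Figure D2:**
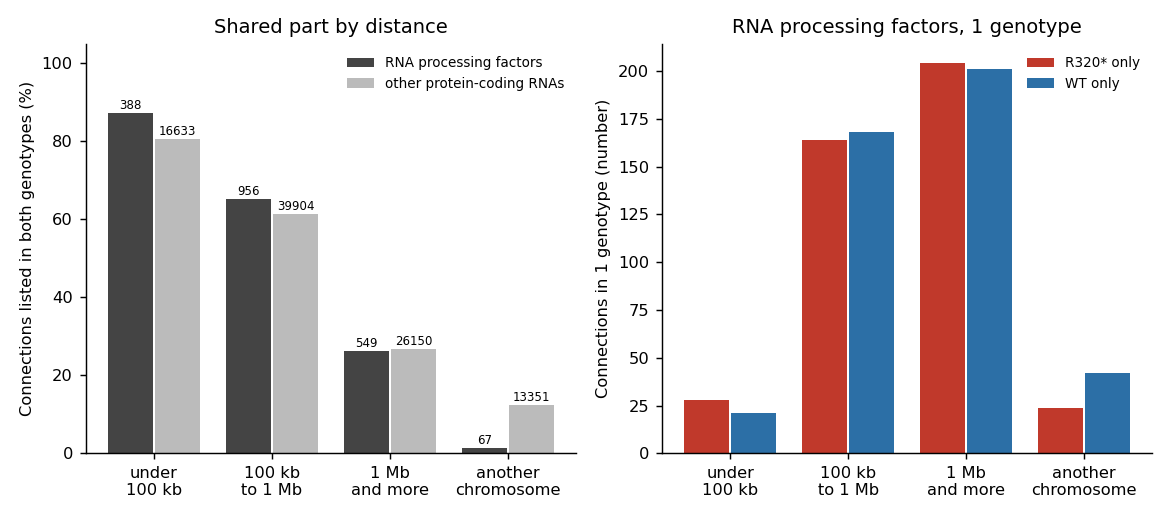
Left, percent of connections listed in both genotypes by distance from the RNA's gene, for the RNA processing factors (dark) and other protein-coding RNAs (light), with the number of connections above each bar. Right, number of connections of the RNA processing factors in R320* only and in WT only for the same distances; 204 and 201 of them lie 1 Mb or more away.

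For LARP1 and RBM20 most of the difference in number lay beyond 1 Mb, whereas for TIA1 4 of the 5 additional R320* contacts lay between 100 kb and 1 Mb, as the plot of same-chromosome contacts of these RNAs shows. LARP1 and RBM27, both from chromosome 5, met several of the same elements, among them an enhancer near PRELID2 and the G3BP1 promoter. Both RNAs met these elements in WT. In R320* the PRELID2 enhancer was listed with RBM27 and not LARP1, and the G3BP1 promoter with LARP1 and not RBM27. The PRELID2 enhancer lay 363 kb from RBM27 and 8843 kb from LARP1. Over the whole series 28 RNAs met the PRELID2 enhancer and 11 the G3BP1 promoter. Of the 1865 elements, 1772 were met by 1 of the 47 RNAs, 91 by 2 and 2 by 3. Of the 91, 51 were those of RBM4 and RBM14-RBM4. An RNA of the group met an element labelled with another gene of the group in 6 cases, in 4 RNAs. Among these cases are the RBM4 promoter and enhancer, met by RBM14-RBM4, both typed as local and overlapping the RBM14-RBM4 gene. CNOT6 met the HNRNPH1 enhancer, at 1.44 in R320* and 1.49 in WT. LARP4 met the PRPF40B enhancer, at 1.44 in WT and not listed in R320*.

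**Figure D3:**
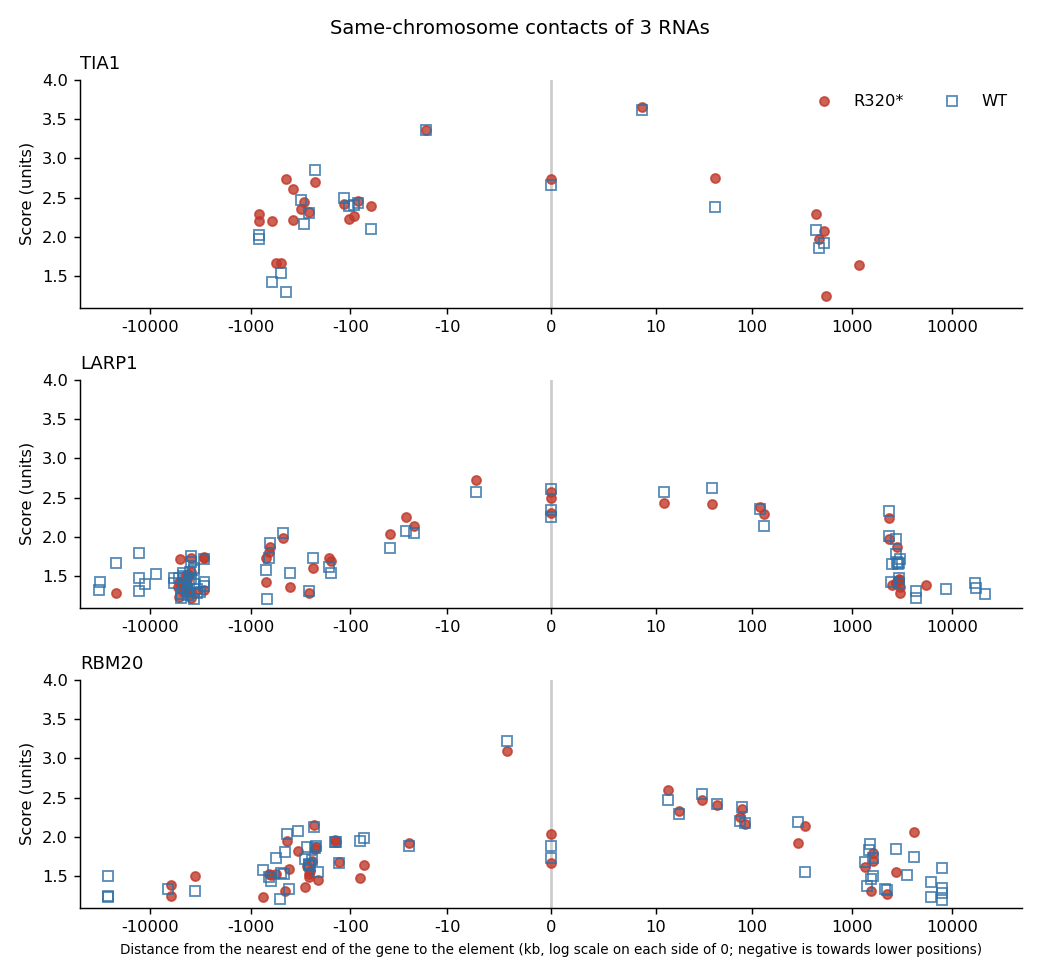
Score (vertical axis) of every same-chromosome contact of TIA1, LARP1 and RBM20 against the distance in kb from the nearest end of the gene (log scale on both sides of 0), in R320* (filled circles) and WT (open squares). TIA1 has all 21 WT contacts in R320* too, LARP1 has 36 contacts beyond 1 Mb in R320* and 54 in WT, and RBM20 has 10 in R320* and 23 in WT.

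Shared connections had close scores, in part by construction, since a connection with a score below 1.2 in 1 genotype counts as listed in the other only. The median difference, R320* minus WT, was 0.0394 (SD 0.259 over 1108 connections), and 59.3% were higher in R320*, where 58.6% of all were. Scores in R320* and WT went together across the shared connections (r = 0.861, rho = 0.795, n = 1108 connections of the same pooled libraries, many at neighbouring elements). The strongest contacts lay close to the gene and differed little, as for HNRNPR with an enhancer near ZNF436, 12.5 kb upstream, at 3.85 in R320* and 3.86 in WT. RBM25 met an enhancer 1.97 kb downstream of itself at 3.60 in R320* and 3.76 in WT, and TIA1 met the PCYOX1 promoter at 3.65 in R320* and 3.62 in WT. HNRNPM met an enhancer at MARCH2 at 3.62 in both.

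The larger score differences lay farther from the gene. HNRNPR met an enhancer at ELOA-AS1, 372 kb upstream, at 2.51 in R320* and 1.51 in WT. LARP4 met an enhancer near DAZAP2, 755 kb away, at 2.66 in R320* and 1.77 in WT, and PRPF4B the CDYL promoter, 662 kb away, at 2.18 in R320* and 1.38 in WT. Lower in R320* were U2SURP with the promoter of the damage kinase gene ATR, 422 kb upstream, at 1.28 in R320* and 2.21 in WT, and HNRNPD with the SCD5 promoter, 425 kb upstream, at 1.63 in R320* and 2.40 in WT. LARP4 met an enhancer at CSRNP2 at 1.25 in R320* and 1.92 in WT. Neighbouring elements could carry the same pair of scores: there were 26 such sets with 52 connections, among them HNRNPR at ELOA-AS1, and each set is 1 observation.

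**Figure D4:**
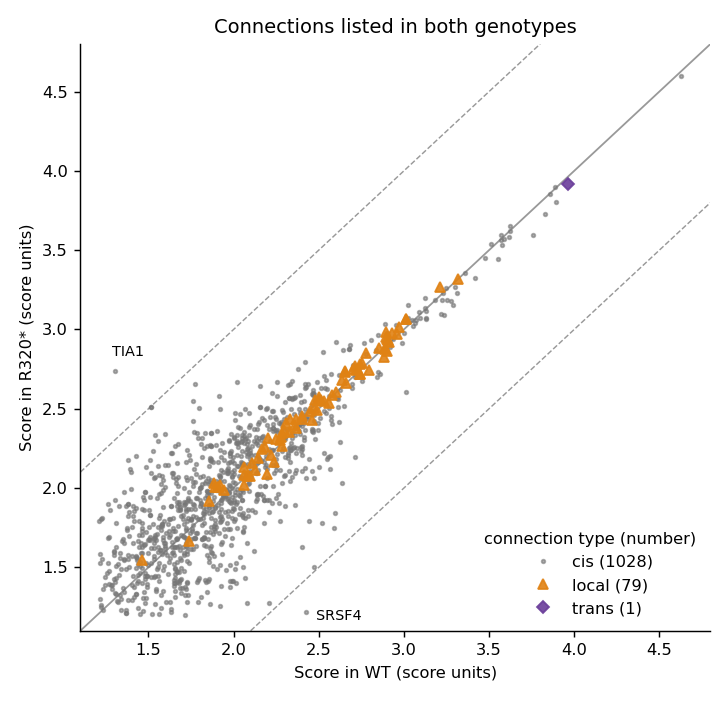
Score in R320* (vertical) against score in WT (horizontal) for the 1108 connections of RNA processing factors listed in both genotypes, by type; the solid line marks equal scores and the dashed lines a difference of 1 unit. Local contacts lie near the line, and 1 connection each of TIA1 (higher in R320*) and SRSF4 (lower in R320*) lies beyond the dashed lines.

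Contacts with other chromosomes were few. They made up 1.64% of the connections in R320* (25 of 1528) and 2.79% in WT (43 of 1540), against 9.78% in R320* and 10.9% in WT for other protein-coding RNAs. These shares depend on how neighbouring elements are counted: with connections of 1 RNA merged within 1 Mb they were 9.65% in R320* (11 of 114 loci) and 16.0% in WT (20 of 125), against 39.2% in R320* and 42.2% in WT for other protein-coding RNAs. Trans contacts belonged to 16 of the 47 RNAs (34.0%), where 33% of all RNAs had a trans contact. Only 1 of the 67 was in both genotypes (1.49%), where 11.5% of all trans connections were. Neighbouring elements made these 67 connections into 30 loci, 11 in R320* and 20 in WT, 1 of them in both. Scores of those in 1 genotype were not near the minimum, with medians of 2.58 (R320* only) and 2.40 (WT only), against 1.63 in each class for other protein-coding RNAs.

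**Figure D5:**
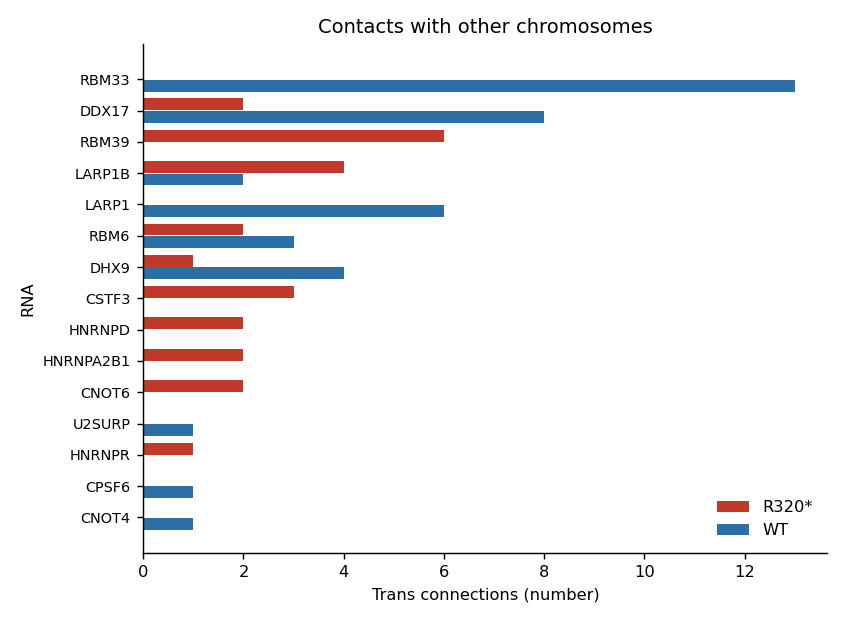
Number of contacts with other chromosomes (horizontal axis) for 15 of the 16 RNAs that had any, in R320* (upper bar) and WT (lower bar). RBM33 has 13 in WT and 0 in R320*, and RBM39 has 6 in R320* and 0 in WT.

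LARP1 met elements at HIST1H2BD and HIST1H2BE on chromosome 6 in WT only, at 3.51, 3.48 and 2.95, and LARP1P1, a pseudogene of LARP1, overlaps 1 of these 3 elements. RNA from a pseudogene and from its parent gene may not be told apart in such reads, which makes this locus uncertain as a trans contact. Over all protein-coding RNAs, 9 of 31 trans connections within 100 kb of the RNA's own pseudogene were in both genotypes (29.0%), against 12.3% of the other 13387.

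DHX9 and LARP1 met elements at MALAT1, an abundant nuclear noncoding RNA gene on chromosome 11, in WT only, with scores up to 2.72 for each. The MALAT1 promoter was met by many other RNAs in both genotypes, 187 in R320* and 190 in WT, so the element itself was listed in both. RBM39 met 6 elements in the region of MYB, a blood progenitor transcription factor gene on chromosome 6, in R320* only, with scores up to 3.04. The 13 RBM33 contacts in WT lay at 7 loci, with the highest score, 2.57, at SUGT1. RBM6 met the HNRNPM and MARCH2 locus on chromosome 19 in WT only, up to 3.17, the same MARCH2 enhancer that led the contacts of HNRNPM. DDX17 and RBM6 both met the PTCD1 promoter on chromosome 7 in R320* only, at 2.74 for DDX17 and 2.14 for RBM6. Also in R320* only, DDX17 met a PTCD1 enhancer, at 2.98, and RBM6 a nearby enhancer at ZNF394, at 2.62. DDX17 met loci at AC087071.1, ZNF217 and DVL2 in WT only, up to 3.38.

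LARP1B met FIBP and CTSW on chromosome 11 in R320* only, up to 3.56, PCBD2 in R320* only, at 1.32, and KMT2D in WT only, at 2.52. Single loci in R320* only joined CNOT6 to CLEC16A (3.59), CSTF3 to STON2 (2.83), HNRNPR to ATP8B1 (2.78), HNRNPA2B1 to AC091167.6 (2.70) and HNRNPD to CLK4 (2.12). Single loci in WT only joined U2SURP to RSPH14 (3.11), CPSF6 to KARS (2.96) and CNOT4 to ZBTB4 (1.45). Each of these is 1 locus in 1 pooled genotype with no replicate check.

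Of 144 further RNA processing genes that the symbols leave out, such as those of core snRNP, poly(A), export and microRNA factors, 56 had a listed RNA, under 57 identifiers. Of these, 49 were in both genotypes, with a median log2 ratio of 0.13. Of the 49, 32 had more connections in R320*, 15 fewer and 2 the same number. Of all 2137 RNAs listed in both, 1244 had more, 719 fewer and 174 the same number. CWC27, SYMPK, THOC1 and TRA2B were listed in R320* only, where 8.61% of all RNAs were. CELF2, PCBP2, SRRM1 and YTHDC1 were listed in WT only, where 10.4% of all were. Among these further RNAs listed in both, 34 had a mean of at least 25 connections. More connections in R320* were listed for 19 of the 34, where 58.5% of all 1293 such RNAs had more. Fewer were listed for 13, where 36.4% of all had fewer, and equal numbers for 2. Of the 34, 0 reached 2-fold in either direction, where 0.619% of all did in each direction.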

How the data were processed

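GRID-seq libraries of K562 cells, 2 from RUNX1 R320* and 2 from WT, were crosslinked by DSG (2 mM, 45 minutes) followed by formaldehyde (3%, 10 minutes), per the labels' protocols. The tools were cutadapt 1.12, BWA and bedtools, with the hg38 build, per the submitters' processing notes. The authors deposited 1 score per connection and genotype, together with the score difference, which equals R320* minus WT. The formula of the score, its scale and the way of pooling libraries were not given in the sources used here, so score differences are not read as folds. No sequencing depth or value per library was held, so no test was made and no interval that needs depth is given.

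RNAs were grouped by symbol. Connections were counted per RNA and genotype with Python 3.11.15 and pandas 2.3.3. Log2 ratios of these numbers used RNAs listed in both genotypes with a mean of at least 25 connections. Called meant at least 2-fold in number or at least 1 score unit. Gene positions and promoter windows came from RefSeq tables (GRCh38.p14), which matched 42 of the 47 genes for promoters. Distance ran from the nearest gene end, and coordinates are printed 1-based, with the deposited element starts taken as 0-based. Counting and merging were tested on simulated data.

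Named RNAs followed a rule: those with most connections, the largest and smallest ratios, the largest and smallest score differences, the highest scores, the most trans contacts and all listed in 1 genotype. Some items that this rule takes are left out of the text and figures. Other named items were chosen after their values were seen. The members and lists were chosen with earlier results of these data known.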

Additional observations from a re-analysis of the deposited data

How the results depend on the processing

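Of 47 alternative values for 10 results, 34 stayed the same by the rule used, 12 moved and 1 changed sign. The same meant within 1.5 times for a count, and within the 95% interval over connections or RNAs for a percent or median. Those intervals take connections as independent, which neighbouring elements of 1 RNA are not. Some values could not change: the TIA1 and SRSF4 contacts are on the same chromosome, so that setting keeps both. Raising the score minimum to 1.5 left 0 member connections at least 1 unit higher and 0 at least 1 unit lower in R320*, by construction, since the TIA1 and SRSF4 contacts each have 1 score below it, and gave a median distance of 195.4 kb. Centring on all shared connections turned the median score difference to -5e-06, equal to the series, and gave 2 connections at least 1 unit lower. The median over RNAs of their own medians was 0.0524. Measured from the gene midpoint the median distance was 289 kb. Merging connections of 1 RNA within 1 Mb gave 38.2% in both genotypes, against 31.6% for other protein-coding RNAs and 29.9% for all RNAs. Trans percents were then 9.65% in R320* and 16.0% in WT. After merging, 0 RNA processing factor RNAs passed the minimum of 25 connections. A setting with no minimum was an alternative chosen after seeing the data. With it, 8 RNA processing factor RNAs reached 2-fold more loci (17% of all RNAs did) and 9 reached 2-fold fewer (13.9% of all did) in R320*. Among RNAs listed in both genotypes 59.8% of connections were shared. The count of 0 RNAs past 2-fold took in only RNAs listed in both genotypes. It was the same with a minimum mean of 10, with none, on the same chromosome only and at the raised score minimum. No paired analysis was possible because the score columns carry no replicate numbers; the replicate block and leaving out each library were not run, since values per library were not held. Unknown depth limits every difference between listed and not listed, and contacts near the score minimum are the least certain.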
